A study of Homo sapiens with 183 samples.

Results

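The genes described here are 9 members of the Notch pathway: the receptors NOTCH1, NOTCH2 and NOTCH3, the ligands JAG1 and JAG2, the modifier LFNG and the targets HES1, HEY1 and NRARP. They were taken by name from all 8 expression tables of the series, as 9 of the 19875 gene names that each table holds. Their mRNA was measured in 183 libraries of 9 human cancer cell lines, as TPM, a transcript level scaled per transcript length in which every library adds up to the same total. Of these, BxPC-3, T3M-4, CFPAC-1, AsPC-1 and SUIT-2 are pancreatic, and their libraries were made on day 5 of CRISPR-Cas9 knockout with sgRNAs to KLF5, RUVBL1, RUVBL2, CDK1, RPA3 (labelled sgRpa3), CHD4 or SERPINB5, and the controls carried sgRosa, which targets the ROSA26 locus. All of these are pooled Cas9-expressing populations rather than clones, so unedited cells may remain in each. Some targets had more than 1 sgRNA, and the labels do not say which a library carried. T3M-4 and AsPC-1 cells transduced with RUVBL1 A62T, RUVBL2 dF109 or the empty vector (EV) were treated for 24 h with CB-6644, an inhibitor of the RUVBL1/2 ATPase complex, or with DMSO. Untransduced T84 (colorectal), A375 (melanoma), H1048 (small-cell lung cancer) and RH30 (alveolar rhabdomyosarcoma) cells received the same 24 h treatments. KLF5 is a zinc-finger transcription factor of epithelial cells, and RUVBL1 and RUVBL2 are AAA+ ATPases that form 1 complex. Each knockout group was compared with sgRosa, and each CB-6644 group with DMSO, of the same line and experiment, the experiment being the leading digit of the replicate label.

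Notch receptors are cleaved when a ligand on a neighbouring cell binds them, and the released intracellular part joins the DNA-binding protein RBPJ and switches on target genes. Jagged ligands and Fringe glycosyltransferases such as LFNG set which receptor and ligand pairs signal well, and HES and HEY proteins are repressors that carry the signal further. In the pancreas the pathway holds progenitors back from differentiation, and it is active again in injured and neoplastic ducts.

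The promoters of HES1, a well known direct target, and of JAG1, the ligand with the most calls as higher among the knockouts (9 of 29), are shown because RBPJ and KLF5 bind DNA. The sequences are the 250 bases before each gene's start in RefSeq (build GRCh38.p14), written on the gene's strand. In HES1, at chr3:194135898-194136147 on the plus strand, capitals mark TGGGAA, the core that RBPJ is known to bind.
HES1: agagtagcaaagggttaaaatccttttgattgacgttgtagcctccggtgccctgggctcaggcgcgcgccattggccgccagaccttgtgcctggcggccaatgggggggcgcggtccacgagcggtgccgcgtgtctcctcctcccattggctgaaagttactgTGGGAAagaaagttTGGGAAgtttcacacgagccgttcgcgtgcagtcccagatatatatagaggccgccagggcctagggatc
JAG1: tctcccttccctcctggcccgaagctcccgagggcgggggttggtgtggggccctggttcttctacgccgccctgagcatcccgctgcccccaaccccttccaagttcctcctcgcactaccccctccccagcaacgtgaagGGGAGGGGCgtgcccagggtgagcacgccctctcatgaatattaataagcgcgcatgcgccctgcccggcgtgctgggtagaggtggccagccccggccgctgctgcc
The HES1 cores began 84 and 70 bases before the start. In JAG1, at chr20:10674000-10674249 on the minus strand, capitals mark a match to GGGNGNGGC, a KLF-type letter pattern, beginning 108 bases before the start. Searched on both strands of 35116 promoters of the same length, TGGGAA was found in 20.8% and GGGNGNGGC in 28.8%. Of the other members, an upstream LFNG start held 1 TGGGAA, and NOTCH1, NOTCH2, NOTCH3, JAG2 and NRARP held between 1 and 3 matches to GGGNGNGGC. HEY1 was left out of this search. These matches are letters in a window and were not tied to binding.

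Values were compared on the log2(TPM + 1) scale with limma, fitted over all genes of a line and experiment, and a gene passed at a Benjamini-Hochberg adjusted p below 0.05. In bulk libraries, fewer cells of a kind and less RNA per cell cannot be told apart. The pseudocount makes differences of low genes smaller. Between 11292 and 14024 genes reached 1 TPM in a library, which stands in for a depth that TPM does not keep. The labels do not say whether replicates were separate cultures, so the p-values measure the spread between libraries, which may be technical. The targeted mRNA passed as lower in 5 of 5 sgRUVBL1, 4 of 4 sgRUVBL2, 2 of 4 sgCDK1 and 2 of 6 sgRpa3 comparisons and under sgSERPINB5. Every knockout library lay below its controls in 3 of 4 sgCDK1 and 6 of 6 sgRpa3 comparisons. KLF5 mRNA passed as lower in 1 of 8 sgKLF5 comparisons. It passed as higher in AsPC-1 experiment 1 (0.53, limma adjusted p = 0.0462) and T3M-4 experiment 2 (0.78, limma adjusted p = 1.73e-05). CHD4 mRNA rose under sgCHD4 (0.28, limma adjusted p = 0.0494). A Cas9 edit need not lower its target's mRNA, and these groups are named below as libraries labelled sgKLF5 or sgCHD4. All 6 basal-like markers reached 1 TPM in T3M-4 and BxPC-3, and all 6 classical markers did so in AsPC-1, CFPAC-1 and SUIT-2. All 5 of their own markers did so in T84 and RH30, 4 of 5 in H1048 and 3 of 5 in A375. The counts alone did not separate the lines. T84 also reached 6 of 6 classical markers and H1048 5 of 6 basal-like ones. BxPC-3, T3M-4 and T84 reached 4 of 5 H1048 markers, and AsPC-1 4 of 5 T84 markers. The summed basal-like level had a median of 15846 TPM in BxPC-3 and 7391 TPM in T3M-4, and at most 594 TPM elsewhere. The summed classical level did not separate the lines in that way, since BxPC-3 (62.3 to 325 TPM) overlapped SUIT-2 (205 to 271 TPM).

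In control libraries the medians of NOTCH1, NOTCH2, JAG1, LFNG and HES1 were above 1 TPM in all 9 lines, and NOTCH3, JAG2, HEY1 and NRARP were below it in at least 1 line. The tables were normalized separately, so this ordering of levels across lines is a description without a test. NOTCH1 was highest in H1048 (median 41.8 TPM), then T84 (27.9) and RH30 (26.5), and lowest in SUIT-2 (4.80), where the range was 0.962 to 5.17 TPM. NOTCH2, which shares nearly identical sequence with its NOTCH2NL relatives so that its level is uncertain, ran from 142.6 TPM in RH30 to 11.8 TPM in AsPC-1. NOTCH3 separated the lines most sharply among the receptors, with medians of 23.2 TPM in H1048 and 18.0 TPM in T3M-4, between 3.31 and 5.86 TPM in RH30, A375, SUIT-2, CFPAC-1 and T84, 0.699 TPM in BxPC-3 and 0.0606 TPM in AsPC-1. The basal-like lines T3M-4 and BxPC-3 therefore stood at opposite ends of the NOTCH3 order within the pancreatic lines, apart from AsPC-1.

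The ligands had different leading lines. JAG1 was highest in CFPAC-1 (median 179 TPM) and BxPC-3 (126 TPM), whose ranges overlapped, followed by T84 (61.2), AsPC-1 (39.9), T3M-4 (35.0) and H1048 (34.9), and it was lowest in RH30 (5.77). JAG2 was highest in T3M-4 (45.7 TPM), BxPC-3 (40.9) and H1048 (32), and low in AsPC-1 (1.47) and A375 (0.148). LFNG was highest in RH30 (105 TPM), several times the level of T84 (41.2) and AsPC-1 (33.5), and lowest in H1048 (2.94). Among the targets, HES1 had medians between 51.9 and 72.2 TPM in T84 and in the 5 pancreatic lines, and 11.9 TPM in H1048, 9.50 TPM in A375 and 1.4 TPM in RH30. HEY1 had the reverse extreme, with 13.5 TPM in RH30 and 7.70 TPM in T3M-4 against 0.197 TPM in T84 and 0.0994 TPM in AsPC-1. NRARP, an ankyrin-repeat feedback inhibitor of Notch, was highest in T84 (60.2 TPM) and listed at 0 in 3 of the 4 A375 libraries. In 33 of the 72 pairs of neighbouring lines in these orders the libraries did not overlap, and in 39 they did. The same count was not taken over all genes, so whether it is particular to these members is not known. HES1 in AsPC-1 also differed between experiments of the same label, with sgRosa or DMSO means from 35.4 to 147.7 TPM.

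**Figure D1:**
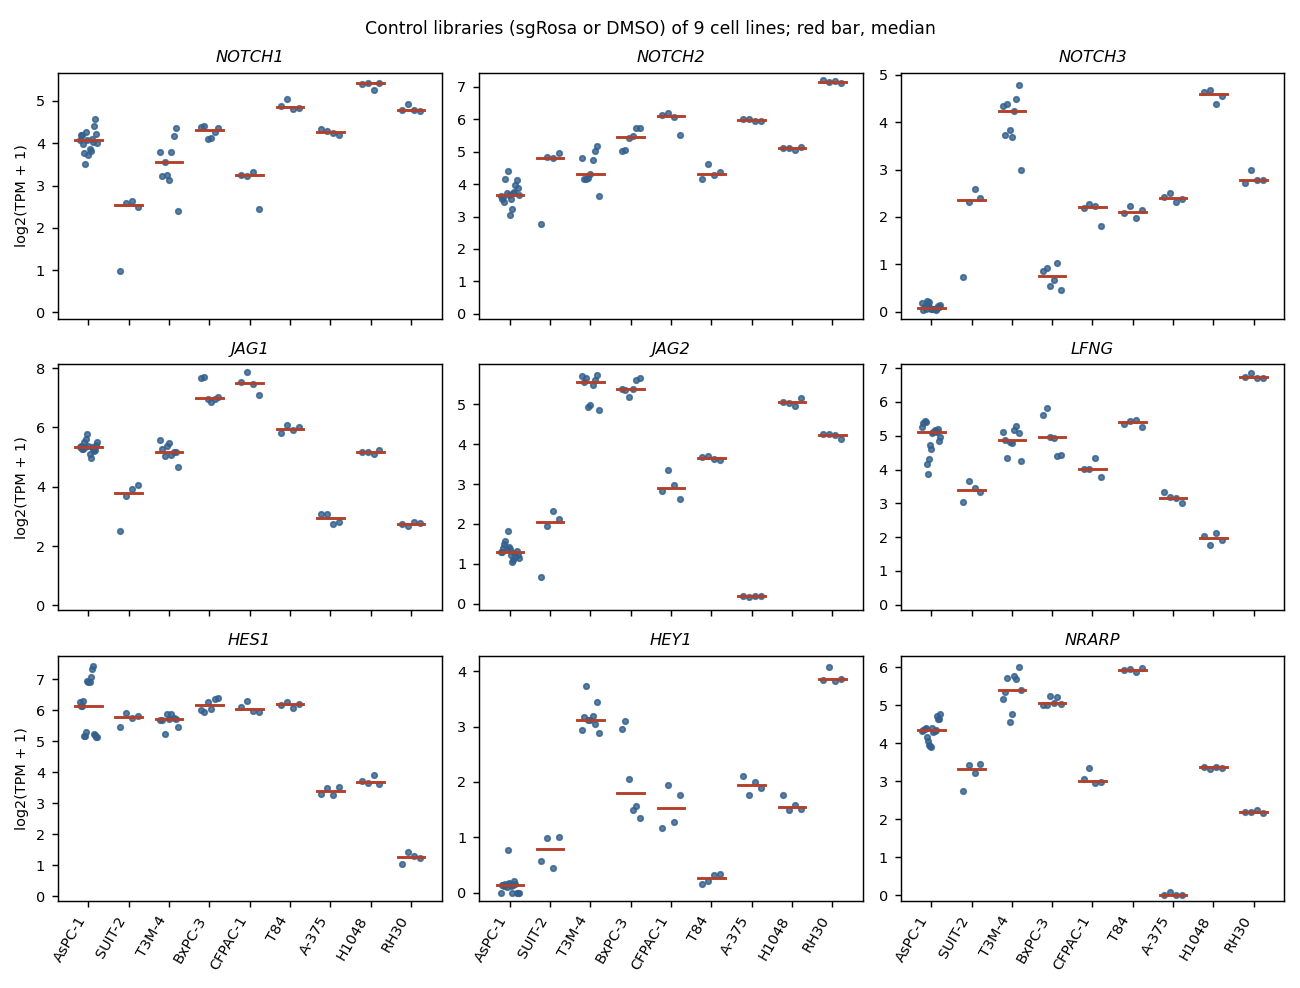
Level of each gene in control libraries (log2(TPM + 1), vertical) by cell line (horizontal). Points are libraries carrying sgRosa or DMSO and red bars are medians, and A375 is written A-375. NOTCH3 and HEY1 lie near 0 in AsPC-1, JAG2 and NRARP in A375, and HES1 in AsPC-1 falls into separate clusters by experiment between 34.4 and 173.6 TPM.

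Of 317 tests of a member against its control in 39 comparisons, 58 passed as higher (18.3%) and 39 as lower (12.3%), beside 20.1% and 10.9% of the tests of all genes in the same comparisons. By comparison, the share of all genes that passed ran from 0% to 81.1%. Comparisons within an experiment share their control libraries, so their results are set side by side and are not independent of each other. A member was tested where its mean reached 1 TPM, so NOTCH3 and HEY1 were not tested in AsPC-1, NOTCH3 in BxPC-3, HEY1 in T84, nor JAG2 and NRARP in A375.

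**Figure D2:**
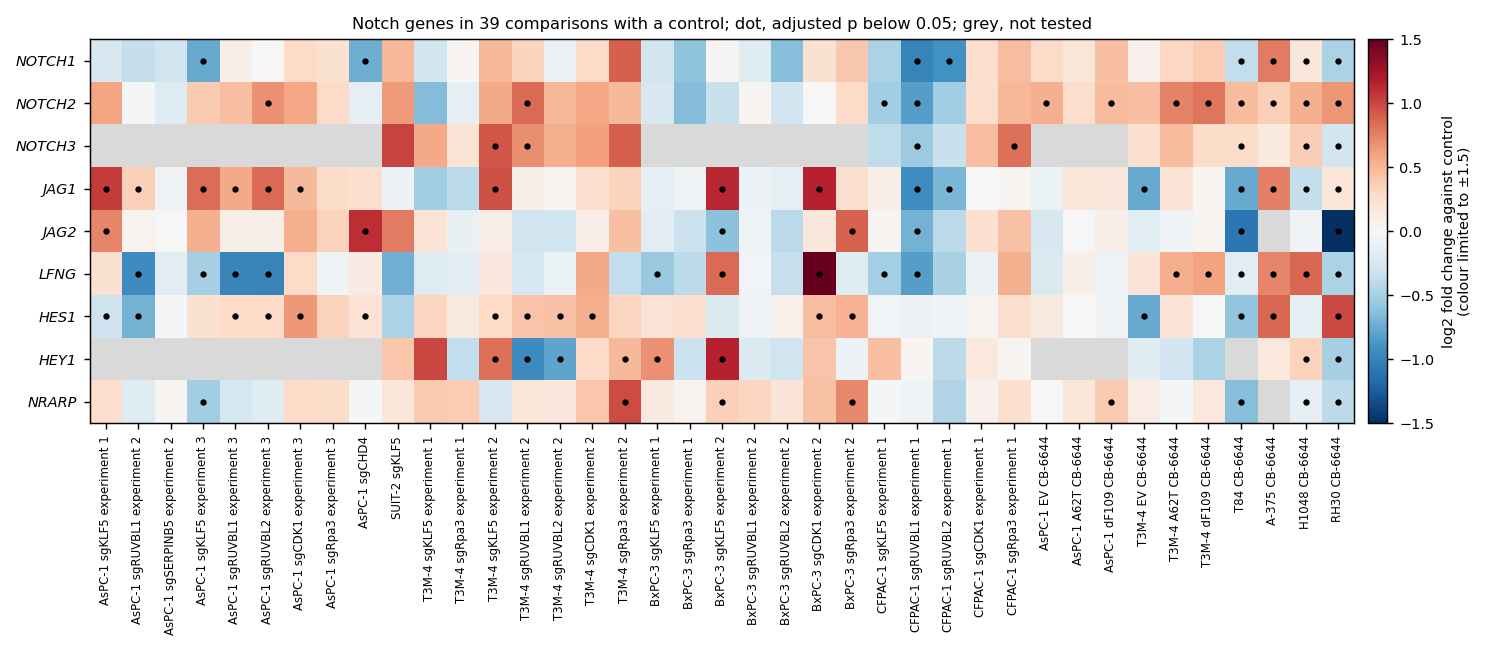
Difference of each gene from its control (colour, log2(TPM + 1) scale) in the comparisons against sgRosa or DMSO, with genes and comparisons on the axes. Marks show where limma's adjusted p was below 0.05, 97 cells in all (58 higher, 39 lower), and NOTCH1, JAG1 and LFNG hold blocks of both colours.

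Libraries labelled sgKLF5 differed from sgRosa in 3 of 7 tested members in AsPC-1 experiment 1 (25.9% of all genes passed there) and 4 of 7 in experiment 3 (27.8%). The count was 4 of 9 in T3M-4 experiment 2 (34.6%), 5 of 8 in BxPC-3 experiment 2 (34.6%), 2 of 8 in BxPC-3 experiment 1 (16.2%) and 2 of 9 in CFPAC-1 (16.2%). No member passed in T3M-4 experiment 1 (5.72%, with 1 of 9 at an unadjusted limma p below 0.05) or in SUIT-2 (3.94%, with 4 of 9). These shares rest on 7 to 9 genes a comparison and are set beside the share of all genes without a test.

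JAG1, a ligand, rose in 4 of these 8 comparisons. In BxPC-3 experiment 2 the sgRosa libraries had 123.9, 115.3, 123.5 and 128.8 TPM of JAG1 and the libraries labelled sgKLF5 had 276.7, 294.2, 254.1 and 254.3 TPM. All 4 lay above every control, a log2 difference of 1.13 ± 0.10 (SE, limma adjusted p = 1.02e-07). In T3M-4 experiment 2 JAG1 was at 32.34, 34.96, 34.83 and 24.35 TPM under sgRosa and at 67.99, 67.58, 56.61 and 54.66 TPM under sgKLF5, again without overlap (0.95 ± 0.12, limma adjusted p = 5.48e-06). In AsPC-1 experiment 3 it was at 35.48, 36.88, 41.22 and 43.99 TPM under sgRosa and 69.13, 81.29, 77.24 and 58.7 TPM under sgKLF5. Those groups did not overlap either (0.84 ± 0.10, limma adjusted p = 1.74e-06), and in AsPC-1 experiment 1 the sgRosa libraries at 53.83 and 40.82 TPM lay below the 6 sgKLF5 libraries, which had a mean of 98.8 ± 15.1 TPM (SD; 1.05, limma adjusted p = 0.000664).

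The rise of JAG1 was not seen in every experiment. In BxPC-3 experiment 1 JAG1 was at 201.5 and 208.3 TPM under sgRosa, and at 251.2, 224.6, 132.3 and 160 TPM under sgKLF5, so the groups overlapped (−0.14, 95% interval −0.66 to 0.38). Replicates 1 and 2 lay above both controls and replicates 3 and 4 below them, and the labels do not give the sgRNA of each. The difference between the experiments was itself past the threshold, at 1.27 on the log2 scale (limma interaction, adjusted p = 0.000377, where 16.7% of all genes passed). In T3M-4 experiment 1, with 40.18 and 43.07 TPM under sgRosa and 33.52, 10.19, 42.05 and 45.18 TPM under sgKLF5, the difference between experiments was 1.48 (adjusted p = 0.0341, 17.4% of all genes passing). SUIT-2 (−0.09, 95% interval −0.82 to 0.65) and CFPAC-1 (0.10, −0.18 to 0.39) did not pass. The library at 10.19 TPM stood apart in other genes too (described with the long-transcript level below). On that level the 4 sgKLF5 libraries of T3M-4 experiment 1 ran from −3.20 to −1.75, below the sgRosa libraries there (−1.40 to −1.35). In BxPC-3 experiment 1 the median level was −1.62 under sgKLF5 and −1.42 under sgRosa. JAG1 followed the level within groups (r = 0.88), and these differences between experiments are to be read beside it.

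HEY1, a target and repressor, rose in the basal-like lines under sgKLF5. In experiment 2 of both lines JAG1 rose too, and in BxPC-3 experiment 1 JAG1 did not pass. In T3M-4 experiment 2 the sgRosa libraries had 8.14, 7.239, 9.933 and 6.424 TPM of HEY1, and the libraries labelled sgKLF5 had 15.79, 14.27, 14.55 and 13.97 TPM (0.82 ± 0.12, limma adjusted p = 2.38e-05). In BxPC-3 experiment 2 HEY1 went from 3.134, 1.8, 1.966 and 1.545 TPM to 7.077, 8.009, 3.509 and 5.627 TPM (1.16 ± 0.22, adjusted p = 0.000528). The groups did not overlap in either line. In BxPC-3 experiment 1 HEY1 was 6.71 and 7.541 TPM under sgRosa and 12.32, 12.78, 10.93 and 12.25 TPM under sgKLF5 (0.69, adjusted p = 0.00773), a call that was lost without sgRosa replicate 1 (adjusted p = 0.119) or 2 (0.0540). T3M-4 experiment 1 (1.01, adjusted p = 0.0830), CFPAC-1 (0.45, 0.115) and SUIT-2 (0.42, 0.357) did not pass.

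HES1, also a transcriptional repressor, passed in 2 sgKLF5 comparisons, with opposite signs. It fell in AsPC-1 experiment 1 (−0.32, limma adjusted p = 0.0177; 0.107 or 0.113 without sgRosa replicate 1 or 2) and rose in T3M-4 experiment 2 from 51.6 ± 6.07 to 63.5 ± 2.75 TPM (SD, n = 4 each; 0.30, adjusted p = 0.0328). The T3M-4 call was lost on rescaling by the median of ratios (0.17, adjusted p = 0.234), which moved the median of all genes there from 0.10 to −0.02, and without sgRosa replicate 4 (0.22, 0.0988) or sgKLF5 replicate 1, 2 or 3 (0.27, 0.31 and 0.30). NRARP moved in opposite directions, falling in AsPC-1 experiment 3 from 25.16, 23.96, 23.97 and 26.35 TPM to 12.9, 21.52, 19.2 and 15.69 TPM (−0.52, adjusted p = 0.00687) and rising in BxPC-3 experiment 2 from 34.3 ± 2.66 to 44.0 ± 1.74 TPM (SD, n = 4 each; 0.35, adjusted p = 0.0291). The BxPC-3 call did not hold without sgKLF5 replicate 2 or 4 or sgRosa replicate 2 or 4 (adjusted p = 0.0616 to 0.0841).

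Among the receptors, NOTCH3 rose under sgKLF5 in T3M-4 experiment 2, from 17.97, 21.46, 26.81 and 6.986 TPM to 33.45, 34.01, 33.05 and 29.97 TPM (0.94 ± 0.26, limma adjusted p = 0.0105). The groups did not overlap although 1 control, sgRosa replicate 4, was far lower, and in a fit of the 2 groups alone the adjusted p was 0.0548. NOTCH1 fell in AsPC-1 experiment 3 (−0.75, adjusted p = 0.0345) with overlapping groups, and the call was lost without sgKLF5 replicate 1 or 4 or sgRosa replicate 1, 2 or 3 (adjusted p = 0.0524 to 0.139). JAG2 rose in AsPC-1 experiment 1 from 1.667 and 1.571 TPM to between 2.87 and 3.995 TPM in 6 libraries (0.73, adjusted p = 0.00277). It fell in BxPC-3 experiment 2 from 35.51, 40.82, 47.85 and 49.73 TPM to 27.91, 28.22, 27.86 and 27.61 TPM (−0.61, adjusted p = 0.00722).

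LFNG, which sets how strongly Notch answers each ligand, had opposite signs in the 2 BxPC-3 experiments. In experiment 1 it was at 48.38 and 55.9 TPM under sgRosa and 34.48, 36.28, 31.39 and 38.62 TPM under sgKLF5 (−0.55, limma adjusted p = 0.0208; 0.0711 or 0.243 without sgRosa replicate 1 or 2). In experiment 2 it was at 30.34, 29.61, 20.03 and 20.73 TPM under sgRosa and 52.41, 44.14, 41.76 and 44.36 TPM under sgKLF5 (0.85 ± 0.21, adjusted p = 0.00398). Neither pair of groups overlapped, and the 2 experiments differed by 1.41 (limma interaction, adjusted p = 0.00226). In AsPC-1 experiment 3 LFNG fell from 33.83, 35.4, 27.81 and 29.92 TPM to 16.72, 25.25, 26.55 and 21.12 TPM (−0.50, adjusted p = 0.0263), a call lost without sgKLF5 replicate 1 or 4 or sgRosa replicate 1 or 2 (adjusted p = 0.0605 to 0.105).

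**Figure D3:**
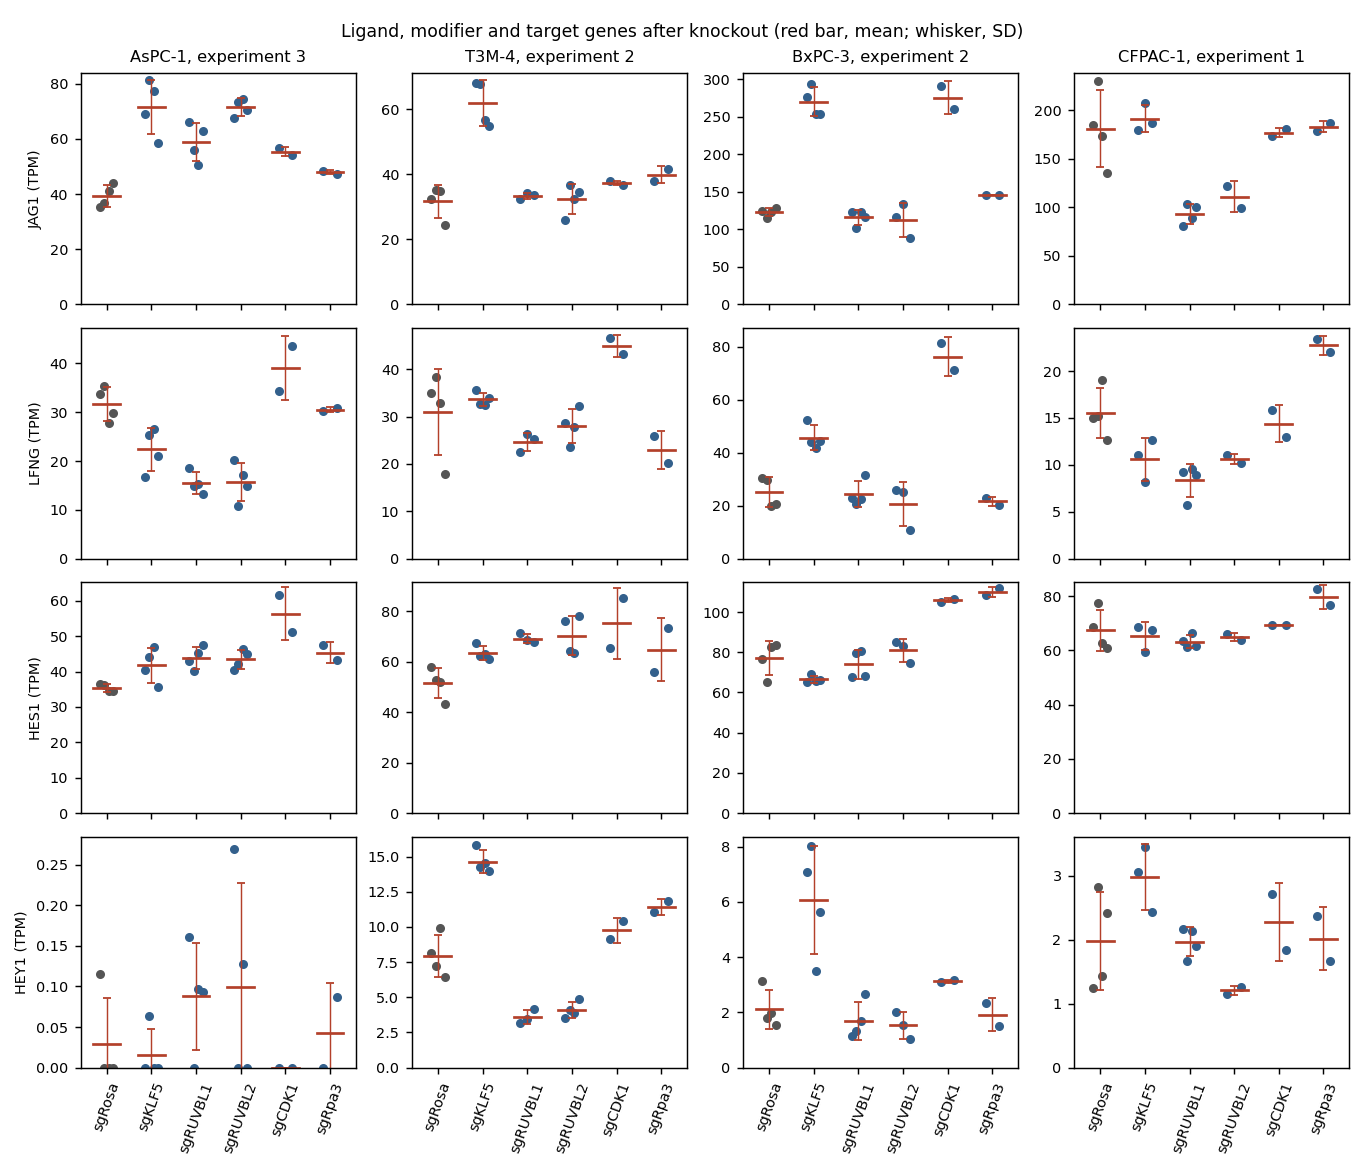
Levels (TPM, vertical, from 0) of selected genes in libraries of sgRosa and of each knockout (horizontal). Points are libraries, with the mean and SD in red. JAG1 in BxPC-3 experiment 2 sits between 254 and 294 TPM under sgKLF5 and between 102 and 129 TPM under sgRosa and sgRUVBL1.

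Knockout of RUVBL1 differed from sgRosa in 3 of 7 members in AsPC-1 experiment 2 (55.8% of all genes passed), 3 of 7 in experiment 3 (51.9%), 4 of 9 in T3M-4 (60.5%) and 0 of 8 in BxPC-3 (16.0%, with 1 of 8 at an unadjusted limma p below 0.05). RUVBL2 knockout differed in 4 of 7 members in AsPC-1 (43.2%), 2 of 9 in T3M-4 (54.5%), 0 of 8 in BxPC-3 (9.76%, with 2 of 8 unadjusted) and 2 of 9 in CFPAC-1 (12.1%). In CFPAC-1 sgRUVBL1 lowered 6 of 9 members, where 43.8% of all genes passed in either direction and 37.3% as lower.

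LFNG fell in AsPC-1 in both RUVBL1 experiments. In experiment 2 it went from 33.01, 33.49, 34.72 and 34.58 TPM under sgRosa to 17.74, 18.07, 15.62 and 17.37 TPM under sgRUVBL1 (−0.94 ± 0.08 SE, limma adjusted p = 2.18e-07). In experiment 3 the sgRosa values given above stood against 18.61, 14.93, 15.37 and 13.29 TPM under sgRUVBL1 (−0.99 ± 0.16, adjusted p = 6.43e-05) and 20.13, 10.73, 17.06 and 14.83 TPM under sgRUVBL2 (−1.0 ± 0.16, adjusted p = 0.000105). Every knockout library lay below every control in these 3 comparisons, and the 2 RUVBL1 experiments differed by −0.04 (limma interaction, adjusted p = 0.909, 18.2% of all genes passing). LFNG did not pass in T3M-4 (−0.27, 95% interval −0.65 to 0.11) or BxPC-3 (−0.04, −0.48 to 0.40).

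HEY1 fell in T3M-4 under both knockouts, the opposite of its sign under sgKLF5 there. The sgRUVBL1 libraries had 3.191, 3.476 and 4.166 TPM (−0.94 ± 0.12, limma adjusted p = 7.11e-06) and the sgRUVBL2 libraries 3.556, 4.102, 3.906 and 4.897 TPM (−0.80 ± 0.12, adjusted p = 1.98e-05), all below the lowest sgRosa library at 6.424 TPM. In BxPC-3 HEY1 was at 1.13, 1.317, 1.672 and 2.677 TPM under sgRUVBL1, inside the control range (−0.21, 95% interval −0.68 to 0.25).

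HES1 gave opposite calls in the AsPC-1 experiments with sgRUVBL1. In experiment 2 it went from 121, 134.8, 161.6 and 173.6 TPM to 90.46, 84.26, 86.37 and 95.65 TPM (−0.71 ± 0.11, limma adjusted p = 5.68e-05). In experiment 3 it went from 36.53, 36.1, 34.59 and 34.44 TPM to 42.91, 40.19, 45.28 and 47.4 TPM (0.30 ± 0.08, adjusted p = 0.00577), a call lost under median-of-ratios scaling (0.12, adjusted p = 0.212). The groups did not overlap in either experiment, and the difference of 1.01 between them passed (limma interaction, adjusted p = 4.11e-05). In T3M-4 HES1 rose under sgRUVBL1 (0.43, adjusted p = 0.00380) and sgRUVBL2 (0.44, adjusted p = 0.00176), and both calls were lost under that scaling (0.14 and 0.23, adjusted p = 0.326 and 0.0803).

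JAG1 rose in AsPC-1 and fell in CFPAC-1 under the same knockouts. In AsPC-1 experiment 3 the sgRUVBL1 libraries had 66.15, 55.99, 50.62 and 62.82 TPM (0.57 ± 0.10, limma adjusted p = 0.000100) and the sgRUVBL2 libraries 67.54, 73.57, 74.6 and 70.47 TPM (0.85 ± 0.10, adjusted p = 4.04e-06), all above the highest sgRosa library at 43.99 TPM. In CFPAC-1 JAG1 went from 184.5, 230.5, 173.6 and 134.7 TPM under sgRosa to 80.7, 103.3, 89.06 and 99.76 TPM under sgRUVBL1 (−0.93 ± 0.12, adjusted p = 7.77e-05) and 122 and 99.45 TPM under sgRUVBL2 (−0.68, adjusted p = 0.00978; 0.0575 or 0.124 without sgRUVBL2 replicate 1 or 2). No CFPAC-1 group overlapped its controls, and the contrast between the lines was not tested. The long-transcript level described below, which JAG1 followed within groups (r = 0.88), moved in the same directions. Under sgRUVBL1 and sgRUVBL2 its medians were −1.11 and −1.09 in AsPC-1 experiment 3, against −1.33 under sgRosa. In CFPAC-1 they were −1.63 and −1.45 against −1.20. The part of this level in the JAG1 differences is to be read beside them. In T3M-4 (0.09, 95% interval −0.18 to 0.36) and BxPC-3 (−0.08, −0.29 to 0.12) JAG1 did not differ from sgRosa beyond the spread of the libraries under sgRUVBL1.

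The other CFPAC-1 members that fell under sgRUVBL1 were NOTCH1, NOTCH2, NOTCH3, JAG2 and LFNG. NOTCH1 was at 8.495, 8.421, 8.932 and 4.417 TPM under sgRosa and at 2.408, 3.463, 3.773 and 3.188 TPM under sgRUVBL1, without overlap (−1.0 ± 0.17, limma adjusted p = 0.000397). NOTCH2 fell by 0.82, NOTCH3 by 0.54, JAG2 by 0.70 and LFNG by 0.83 on the log2 scale (adjusted p = 0.000744, 0.00689, 0.00254 and 0.000783), with overlap for NOTCH2 and NOTCH3. HES1, HEY1 and NRARP, the targets, did not pass there. The long-transcript level described below was also lower in these libraries (median −1.63 against −1.20), and with it as a covariate the calls of NOTCH1 (−0.76, adjusted p = 0.0713), NOTCH2 (−0.21, 0.344) and NOTCH3 (−0.31, 0.350) were lost. Elsewhere NOTCH2 rose under sgRUVBL2 in AsPC-1, from 11.56 to 16.61 TPM in the controls to 20.41 to 26.98 TPM (0.69, adjusted p = 0.0101), and under sgRUVBL1 in T3M-4 (0.85, adjusted p = 0.0151), and neither call was kept with that covariate (0.03 and −0.057).

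Tested directly against sgKLF5, sgRUVBL1 differed in 3 of 7 members in AsPC-1 (58.5% of all genes passed), 4 of 9 in T3M-4 (45.8%), 4 of 8 in BxPC-3 (44.0%) and 3 of 9 in CFPAC-1 (30.9%). JAG1 was lower under sgRUVBL1 in all 4 lines, by −1.21 in BxPC-3 (limma adjusted p = 3.11e-08), −1.03 in CFPAC-1 (0.000118), −0.86 in T3M-4 (3.15e-05) and −0.27 in AsPC-1 (0.0210). The AsPC-1 call was lost without sgKLF5 replicate 2 or 3 or sgRUVBL1 replicate 3 or 4 (adjusted p = 0.0530 to 0.0817). HEY1 was lower under sgRUVBL1 by −1.77 in T3M-4 (adjusted p = 5.61e-09) and −1.37 in BxPC-3 (7.19e-05), where the sgRUVBL1 and sgKLF5 libraries did not overlap. LFNG was lower in BxPC-3 (−0.89, adjusted p = 0.00208) and AsPC-1 (−0.49, 0.0144; 0.0515 without sgRUVBL1 replicate 1).

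Between sgRUVBL2 and sgRUVBL1 no member passed in AsPC-1 (3.71% of all genes), T3M-4 (0.0226%), BxPC-3 (0.0323%) or CFPAC-1 (0.0235%), with 1, 0, 0 and 1 members at an unadjusted limma p below 0.05. The intervals leave room for differences: for JAG1 in AsPC-1 the estimate was 0.28 (95% interval 0.08 to 0.49, adjusted p = 0.107), and for NOTCH1 in T3M-4 it was −0.42 (−1.14 to 0.30). Against sgCDK1, sgRUVBL1 differed in 3 of 7 members in AsPC-1 (48.2% of all genes), 2 of 9 in T3M-4 (29.1%), 3 of 8 in BxPC-3 (21.6%) and 6 of 9 in CFPAC-1 (43.7%), the last all lower (38.3% of all genes). LFNG was lower under sgRUVBL1 than under sgCDK1 in all 4 lines, by −1.62 in BxPC-3 (adjusted p = 0.000261), −1.27 in AsPC-1 (4.13e-05), −0.84 in T3M-4 (0.00737; 0.0563 without sgCDK1 replicate 1) and −0.74 in CFPAC-1 (0.00648; 0.0878 without sgCDK1 replicate 1 and 0.0854 on rescaling).

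CDK1, the mitotic kinase, and RPA3, a subunit of the single-strand DNA binding complex, are needed for division in all cells. sgCDK1 differed from sgRosa in 2 of 7 members in AsPC-1 (16.7% of all genes), 1 of 9 in T3M-4 (16.8%), 3 of 8 in BxPC-3 (5.82%) and 0 of 9 in CFPAC-1 (0%, with 1 of 9 at an unadjusted limma p below 0.05). In BxPC-3 the sgCDK1 libraries had 291 and 259.9 TPM of JAG1, inside the sgKLF5 range (1.16 ± 0.12, limma adjusted p = 9.64e-06), and 81.44 and 71.1 TPM of LFNG, above every sgRosa and sgKLF5 library (1.58 ± 0.26, adjusted p = 0.00105). JAG1 also rose under sgCDK1 in AsPC-1, to 56.57 and 54.16 TPM (0.49, adjusted p = 0.00829; 0.108 or 0.0567 without sgCDK1 replicate 1 or 2). HES1 rose under sgCDK1 in AsPC-1 (0.65 ± 0.10, adjusted p = 0.000241), BxPC-3 (0.46, 0.00816; 0.0945 or 0.104 without sgCDK1 replicate 1 or 2) and T3M-4 (0.53, 0.00972; 0.178 without sgCDK1 replicate 2 and 0.0628 on rescaling). The JAG1 rise of BxPC-3 experiment 2 was thus shared by sgKLF5 and sgCDK1 and was not seen with sgRUVBL1. In BxPC-3 experiment 1, which had neither sgCDK1 nor sgRUVBL1 libraries, JAG1 did not pass under sgKLF5.

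sgRpa3 differed in 2 of 9 members in T3M-4 experiment 2 (24.6% of all genes), 3 of 8 in BxPC-3 experiment 2 (20.8%) and 1 of 9 in CFPAC-1 (11.6%). No member passed in AsPC-1 (0.654%), T3M-4 experiment 1 (0%) or BxPC-3 experiment 1 (0.307%), with 2, 0 and 2 members at an unadjusted limma p below 0.05. NRARP rose from 52.93, 50.25, 63.04 and 41.43 TPM to 87.16 and 120.4 TPM in T3M-4 (0.98 ± 0.16, limma adjusted p = 0.000465). It rose from 37.09, 32.32, 36.1 and 31.8 TPM to 57.52 and 56.87 TPM in BxPC-3 experiment 2 (0.72 ± 0.15, adjusted p = 0.00226). JAG2 rose in the same BxPC-3 libraries to 81.07 and 79.83 TPM (0.88, adjusted p = 0.00463; 0.0608 without sgRpa3 replicate 1). HES1 rose there as well (0.52, adjusted p = 0.00148). In CFPAC-1 the member was NOTCH3, from 3.551, 3.854, 3.728 and 2.477 TPM to 5.989 and 7.573 TPM (0.83, adjusted p = 0.00822; 0.160 without sgRpa3 replicate 2). The knockouts of the 2 BxPC-3 experiments differed for JAG2 and NRARP (1.21 and 0.68, interaction adjusted p = 0.0141 and 0.0464, 7.77% of all genes passing), and in T3M-4 no member differed between the experiments (0.107% of all genes, with HEY1 at an unadjusted p of 0.00520).

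In AsPC-1 libraries labelled sgCHD4, for a remodelling ATPase of the NuRD complex, 3 of 7 members passed (50.0% of all genes). JAG2 was at 1.44, 1.472, 1.621 and 1.85 TPM under sgRosa and at 5.014, 4.595, 4.361 and 4.335 TPM under sgCHD4 (1.1 ± 0.10, limma adjusted p = 4.27e-06). NOTCH1 went the other way, from 15.97, 17.35, 17.35 and 14.92 TPM to 10.42, 7.095, 10.42 and 10.34 TPM (−0.73 ± 0.12, adjusted p = 0.000305). Neither gene's groups overlapped. The other was HES1 (0.21, adjusted p = 0.0161), with overlapping groups, and its call was lost without sgCHD4 replicate 4 or sgRosa replicate 2 or 3 (adjusted p = 0.0510 to 0.0516). sgSERPINB5 changed none of 7 members (0.0343% of all genes, and no member at an unadjusted limma p below 0.05).

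CB-6644 in T3M-4 with the empty vector changed 2 of 9 members (34.3% of all genes), JAG1 and HES1, and both were lower. JAG1 was at 47.03, 37.22 and 31.92 TPM in the DMSO libraries of A62T, dF109 and EV cells and at 26.45, 22.6 and 18.6 TPM in EV cells with CB-6644 (−0.75 ± 0.14, limma adjusted p = 0.00205). HES1 was at 50.7, 50.28 and 36.88 TPM in those DMSO libraries and at 29.5, 27.87 and 22.65 TPM with CB-6644 (−0.76 ± 0.13, adjusted p = 0.00146). The treated libraries were below every DMSO library, including the EV one, which was the lowest of the 3 for both genes. Against that EV library alone the differences were −0.50 and −0.46 (adjusted p = 0.0299 and 0.0344), with 1 control library that is assumed to vary like the other groups.

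Cells with a RUVBL variant, which carry a substitution or deletion in 1 subunit of the drug's target, did not show this fall. With CB-6644, JAG1 was at 44.82, 44.23 and 43.19 TPM in A62T cells and 40.04, 39.17 and 38.22 TPM in dF109 cells, within the DMSO range. HES1 was at 54.62, 48.2 and 55.27 TPM in A62T cells and 42.44, 47.05 and 47.59 TPM in dF109 cells. Compared with EV in CB-6644, 2 of 9 members passed for A62T (50.6% of all genes), JAG1 by 0.95 ± 0.14 and HES1 by 0.96 ± 0.13 (limma adjusted p = 0.000626 and 0.000491), and 2 of 9 for dF109 (34.6%), JAG1 by 0.78 ± 0.14 and HES1 by 0.76 ± 0.13 (0.00415 and 0.00387). The variant libraries lay above every EV library in all 4 comparisons. In DMSO the A62T and dF109 libraries were also above the EV library for both genes, with JAG1 at 47.03 and 37.22 against 31.92 TPM. With 1 DMSO library a vector, a difference between the vectors and a difference in drug response cannot be told apart here. The long-transcript level was higher in them (medians −1.17 and −1.19 against −1.38), and with it as a covariate the dF109 differences no longer passed (0.44 and 0.58, adjusted p = 0.0982 and 0.104). Against DMSO, CB-6644 changed 2 of 9 members in A62T cells (50.0% of all genes) and 2 of 9 in dF109 cells (37.6%), in both NOTCH2 and LFNG, whose values with that covariate were −0.14 and −0.10 in A62T cells and −0.022 and −0.0036 in dF109 cells.

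In AsPC-1 the empty-vector cells showed 1 of 7 members past the threshold (64.4% of all genes), A62T cells 0 of 7 (12.7%, with 1 of 7 at an unadjusted limma p below 0.05) and dF109 cells 2 of 7 (33.4%). The member in EV cells was NOTCH2, at 12.32, 16.78 and 20.2 TPM in DMSO and 21.55, 22.37 and 28.09 TPM in CB-6644 (0.54 ± 0.15, limma adjusted p = 0.00821), which did not pass against the EV DMSO library alone (0.23, adjusted p = 0.250). JAG1 (−0.10, 95% interval −0.27 to 0.06) did not show the change of T3M-4. Against EV in CB-6644, 1 of 7 members passed for A62T (51.1%) and 4 of 7 for dF109 (47.2%). JAG1 was at 38.87, 38.42 and 45.12 TPM in EV, 51.55, 47.35 and 50.39 TPM in A62T (0.28, adjusted p = 0.00813) and 49.7, 50.03 and 48.04 TPM in dF109 cells (0.27, adjusted p = 0.0118; 0.0542 without EV replicate 2). The contrast of the lines was not tested.

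**Figure D4:**
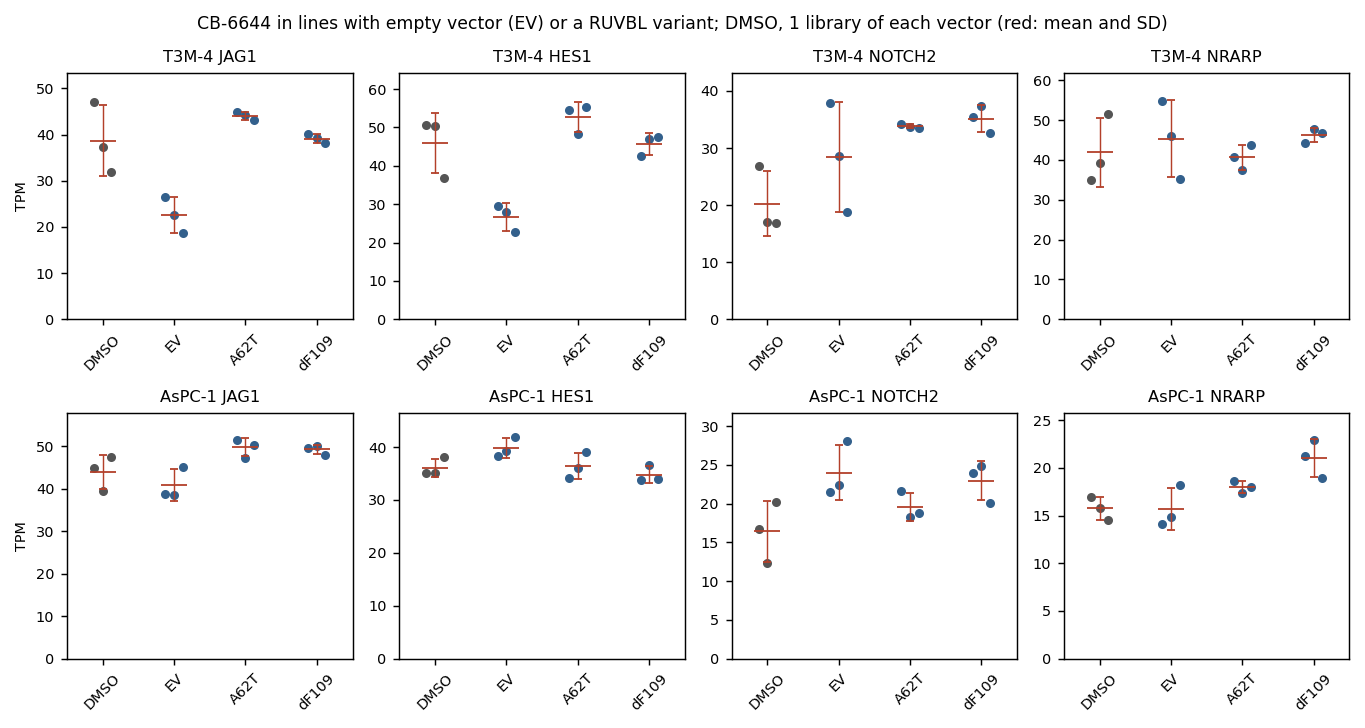
Levels (TPM, vertical, from 0) of JAG1, HES1, NOTCH2 and NRARP in T3M-4 (top) and AsPC-1 (bottom) for DMSO and for CB-6644 with EV, A62T or dF109 (horizontal). Points are libraries, 3 a group, and red marks show the mean and SD. In T3M-4 the EV libraries lie at 18.6 to 26.5 TPM for JAG1, below all other groups.

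In the untransduced lines CB-6644 changed most genes, and the members were no exception. The counts were 8 of 8 in T84 (71.4% of all genes), 5 of 7 in A375 (81.1%), 7 of 9 in H1048 (77.9%) and 9 of 9 in RH30 (77.7%). Higher members numbered 2 in T84 (47.2% of all genes were higher), 5 in A375 (51.5%), 5 in H1048 (53.9%) and 3 in RH30 (50.4%), and lower ones 6 in T84 (24.2%), 2 in H1048 (24.0%) and 6 in RH30 (27.3%). The effect of CB-6644 differed between the 4 lines for the 6 members tested in all of them, NOTCH1, NOTCH2, NOTCH3, JAG1, LFNG and HES1 (limma F-test, adjusted p from 4.16e-15 to 0.0124), as it did for 86.2% of all genes. The same test gave 5.11e-20 for JAG2, 5.71e-10 for NRARP and 1.50e-06 for HEY1, but it includes a line in which the gene is below 1 TPM (A375 for JAG2 and NRARP, T84 for HEY1), where the floor of 0 and the pseudocount limit the size of a change.

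NOTCH2 was the one member that rose in all 4 lines, by 0.66 ± 0.03 in RH30 (from 138.4–146 to 219–232 TPM), 0.53 ± 0.03 in H1048 (32.46–34.1 to 47.81–50.13), 0.47 ± 0.09 in T84 (17–23.37 to 24.28–30.57) and 0.36 ± 0.03 in A375 (60.57–63.24 to 75.77–82.72). No group of libraries overlapped its control (limma adjusted p from 5.11e-10 to 0.000166). NOTCH1 rose in A375 from 19.14, 18.41, 17.93 and 17.2 TPM to 31.71, 30.51, 33.44 and 32.4 TPM (0.78 ± 0.04, adjusted p = 1.64e-08). It fell in RH30 (−0.47, adjusted p = 1.69e-06) and T84 (−0.37, 0.000239). In RH30 the long-transcript level of a library (the mean of genes with long transcripts minus that of genes with short ones) separated the groups (−0.647 to −0.594 in DMSO, −0.514 to −0.457 in CB-6644), and with it as a covariate the NOTCH1 difference was −0.23 (adjusted p = 0.285). Its rise in H1048 was 0.17 (adjusted p = 0.00529) and −0.038 after median-of-ratios scaling. The median level was also higher in CB-6644 than in DMSO in H1048 (−0.618 against −0.689), T84 (−1.25 against −1.37) and A375 (−1.07 against −1.08). Within groups NOTCH2 followed this level more closely than any other member (r = 0.90), and its rise in the 4 lines is to be read beside that.

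JAG2 showed the largest change of any member. In RH30 it went from 17.98, 17.96, 17.72 and 16.55 TPM to 2.929, 3.242, 3.742 and 3.048 TPM (−2.13 ± 0.07, limma adjusted p = 4.75e-11), and in T84 from 11.78, 12.09, 11.46 and 11.17 TPM to 4.432, 5.197, 5.443 and 4.739 TPM (−1.09 ± 0.08, adjusted p = 6.09e-09). JAG1 fell in T84 from 55.41, 67.32, 59.33 and 63.02 TPM to 36.39, 36.97, 35.71 and 34.08 TPM (−0.76 ± 0.06, adjusted p = 1.83e-08) and less in H1048 (−0.36, 9.33e-06). In A375 it rose from 7.367, 7.499, 5.675 and 6.022 TPM to 12.02, 12.02, 11.69 and 11.7 TPM (0.76 ± 0.08, adjusted p = 3.35e-06). In RH30 its rise was 0.18 (adjusted p = 0.00886) and was lost on rescaling (0.04).

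The targets also had line-dependent signs. HES1 fell in T84 from 71.58, 75.9, 67.08 and 72.85 TPM to 45.96, 45.56, 52.41 and 46.06 TPM (−0.59 ± 0.06, limma adjusted p = 1.57e-07). It rose in A375 from 8.81, 10.2, 8.64 and 10.53 TPM to 17.58, 18.84, 18.28 and 17.55 TPM (0.86 ± 0.06, adjusted p = 1.97e-07) and in RH30 from 1.08–1.69 to 3.22–4.47 TPM (0.99 ± 0.10, adjusted p = 2.13e-06; 0.94 and 0.0847 with the long-transcript covariate). NRARP fell in T84 from 57.44–61.83 to 36.45–39.12 TPM (−0.64, adjusted p = 1.15e-08) and in RH30 (−0.40, 0.000147). HEY1 fell in RH30 from 13.36, 15.87, 13.18 and 13.57 TPM to 9.547, 8.912, 9.933 and 9.895 TPM (−0.50, adjusted p = 1.06e-05), where HES1 rose. LFNG rose in A375 (0.73, adjusted p = 2.11e-06) and H1048 (0.86, 2.35e-06), from 2.423–3.336 to 5.507–6.584 TPM in the latter, and fell in RH30 from 102.6–114.8 to 74.1–77.86 TPM (−0.48, 9.85e-08; −0.30 and 0.0715 with that covariate).

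Other genes of the pathway were followed as a list of 40, of which 26 to 35 reached the limit for testing in a line and experiment. In T3M-4 experiment 2, 21 of 35 rose and 4 fell under sgRUVBL1 (45.9% and 14.6% of all genes), and 14 rose and 2 fell under sgKLF5 (23.4% and 11.2%). In CFPAC-1 9 of 30 fell under sgRUVBL1 (37.3% of all genes). In AsPC-1 EV cells 13 of 28 rose and 2 fell in CB-6644 (47.2% and 17.2%), and in T84 17 of 31 rose and 5 fell (47.2% and 24.2%). The counts stand beside the shares of all genes without a test between them. The genes called in the most of the 39 comparisons with a control were NCSTN, the nicastrin subunit of γ-secretase, 18 times higher and 2 times lower, NUMB, an endocytic inhibitor of Notch, 16 and 2 times. APH1B, a further γ-secretase subunit, was 16 times higher and 0 times lower, level in its number of calls with DTX4 (6 and 10) and POFUT1 (11 and 5), and is described for its larger median absolute difference (0.41, against 0.36 and 0.24). In T3M-4 NCSTN and NUMB rose under sgRUVBL1 by 0.72 and 0.70 (limma adjusted p = 4.33e-06 and 2.58e-06), and APH1B rose under sgKLF5 by 0.82 (0.000141) and in BxPC-3 experiment 2 by 0.87 (0.00418).

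Several members moved within groups with a property of the whole library. The long-transcript level of a library was taken as the mean log2(TPM + 1) of 2115 genes whose longest protein-coding transcript has at least 5872 bases, minus that of 2122 genes with at most 1923 bases. It ranged from −3.20 to −0.46 over the 183 libraries. After subtracting group means, it had a Pearson r of 0.90 with NOTCH2, 0.88 with JAG1, 0.69 with NOTCH1, 0.66 with NOTCH3, 0.56 with JAG2, 0.45 with NRARP, 0.30 with LFNG, 0.17 with HES1 and 0.13 with HEY1. These describe 183 libraries that share groups and tables, and the points are not independent. The longest protein-coding transcripts are those of NOTCH2 (11425 bases), NOTCH1 (9568), NOTCH3 (8680), JAG1 (5940) and JAG2 (5773), followed by HEY1 (3767), NRARP (2641), LFNG (2445) and HES1 (1575). The order of r does not follow length throughout, since HEY1 had the lowest r. The lowest library, T3M-4 sgKLF5 experiment 1 replicate 2 at −3.20, is the one with 10.19 TPM of JAG1. The part of this property in the results was examined only as a covariate, with which 99 of the 134 member calls were kept.

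**Figure D5:**
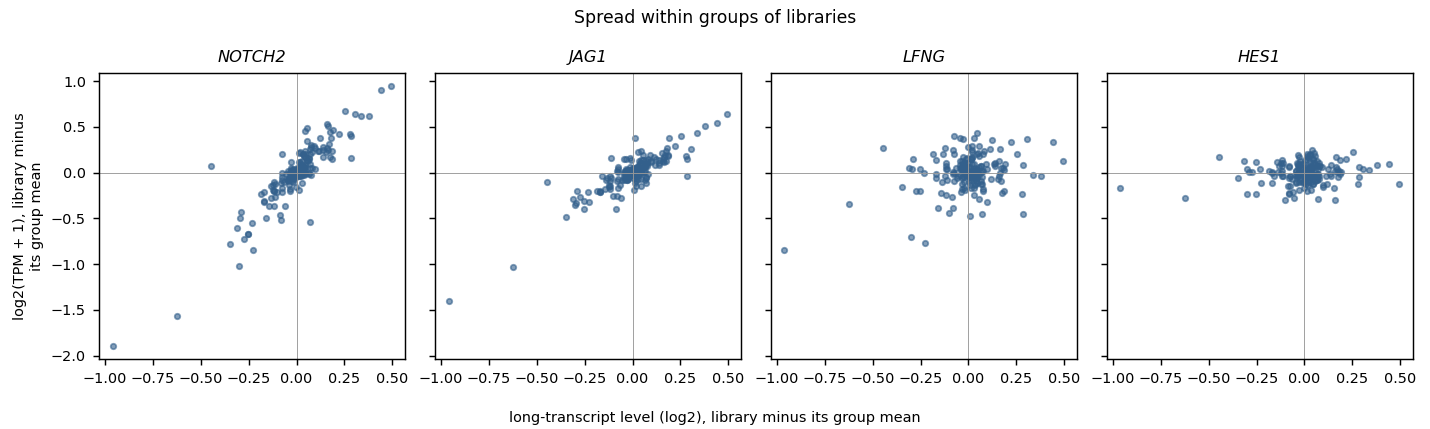
Each library's log2(TPM + 1) minus its group mean (vertical) against its long-transcript level minus its group mean (horizontal, log2) for NOTCH2, JAG1, LFNG and HES1. Points are 183 libraries. NOTCH2 and JAG1 follow the level (r = 0.90 and 0.88), and LFNG and HES1 do so weakly (r = 0.30 and 0.17).

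The genes most like each member were sought over 127 knockout and CB-6644 libraries, each taken as the log2 difference from its controls, among 9563 genes above 1 TPM in every experiment. NOTCH2 came closest to ZNF609 (r = 0.94), WNK1 (0.94) and BAZ2A (0.93), and NOTCH1 to DOT1L (0.87), CLUH (0.85) and ABCA2 (0.85). NOTCH3 came closest to PIK3R2, PIAS3 and SKI (0.78 each), JAG2 to NAB2 (0.77), LRFN4 (0.75) and BAHCC1 (0.73), and LFNG to HDAC1 (0.71), SLC12A9 (0.68) and EEPD1 (0.68). JAG1 came closest to ALG8 (0.70), ENTPD7 (0.69) and TNIK (0.69), HEY1 to HMGN3 (0.68), ZIC2 (0.63) and FAH (0.62), and NRARP to ZFP36L2 (0.65), IRF2BP2 (0.64) and SSBP4 (0.62). HES1 had no close partner, its highest being FOS (0.52), ZFP36 (0.51) and MUC1 (0.50). These are descriptions over libraries that share controls and, as above, the long-transcript level.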

How the data were processed

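Messenger RNA of 183 libraries was analysed from 8 tables of TPM, which the authors made before they deposited them by pseudo-aligning single-end poly-A reads to hg38 with kallisto, removing low-abundance transcripts (limit and annotation not given in the sources used here) and summing transcripts to genes with tximport. TPM keeps neither counts nor depth. Groups came from the labels. log2(TPM + 1) was tested in limma 3.58.1 (R 4.3.3) with a mean-variance trend, for the genes that averaged 1 TPM or more across a line's libraries in an experiment, with Benjamini-Hochberg adjustment over all those genes. The scripts were tested on simulated data. The 3 DMSO libraries of AsPC-1 and of T3M-4, 1 for each vector, were pooled as controls. The members, the pathway list, the markers and the comparisons were chosen with earlier results of these data known. The named genes were the 9 members, the targeted genes, the 3 pathway genes called most often with ties broken by median size, and the 3 genes most correlated with each member. Alternatives were no filter, a limit of 5 TPM in its place, a pseudocount of 0.1, median-of-ratios scaling, only the 2 groups compared, a replicate block, the same-vector DMSO library alone, each library left out and, chosen after the data were seen, the long-transcript level as a covariate. Replicate numbers paired the libraries in 1 of 30 comparisons with at least 3 shared numbers, sgRUVBL2 against sgRUVBL1 in BxPC-3 (correlation of deviations from 0.22 to 0.46), as shown by the data and not by the labels. Promoters came from RefSeq, transcript lengths from GENCODE. All 9 members matched a RefSeq promoter entry, the HEY1 promoter was not searched for letter patterns, and not every promoter is printed.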

Additional observations from a re-analysis of the deposited data

Results flagged for a closer look

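Each member in each group of 4 to 10 libraries was taken as a case. In 24 of 239 cases 1 library lay far from the rest by Dixon's ratio, the gap to its neighbour over the whole range. Chance gives about 1 in 20 for a single case. The cases are not independent, since members share libraries. SUIT-2 sgRosa replicate 1 recurs for NOTCH1, NOTCH2 and NOTCH3, and T3M-4 sgKLF5 experiment 1 replicate 2 for NOTCH3, JAG2 and NRARP. The share over all genes was not taken. For NOTCH1 the ratios were 0.978 in AsPC-1 sgCHD4 (replicate 2), 0.942 in AsPC-1 sgRUVBL1 experiment 3 (replicate 4), 0.913 in CFPAC-1 sgRosa (replicate 4), 0.871 in H1048 DMSO (replicate 3), 0.830 in RH30 DMSO (replicate 2) and 0.915 in SUIT-2 sgRosa (replicate 1). For NOTCH2 they were 0.929 in AsPC-1 sgSERPINB5 (replicate 4) and 0.931 in SUIT-2 sgRosa (replicate 1). For NOTCH3 they were 0.872 in SUIT-2 sgKLF5 (replicate 2), 0.851 in SUIT-2 sgRosa (replicate 1) and 0.865 in T3M-4 sgKLF5 experiment 1 (replicate 2). For JAG2 they were 0.875 in AsPC-1 sgRUVBL2 (replicate 2), 0.915 in AsPC-1 sgSERPINB5 (replicate 4), 0.852 in CFPAC-1 sgRUVBL1 (replicate 3), 0.966 in SUIT-2 sgKLF5 (replicate 2) and 0.858 in T3M-4 sgKLF5 experiment 1 (replicate 2). LFNG had 0.880 in A375 CB-6644 (replicate 3) and 0.852 in CFPAC-1 sgRUVBL1 (replicate 2). HES1 had 0.879 in AsPC-1 sgCHD4 (replicate 1), 0.830 in BxPC-3 sgKLF5 experiment 1 (replicate 3) and 0.922 in T84 CB-6644 (replicate 3). HEY1 had 0.844 in RH30 DMSO (replicate 2), and NRARP 0.732 in AsPC-1 sgKLF5 experiment 1 (replicate 1) and 0.842 in T3M-4 sgKLF5 experiment 1 (replicate 2).

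In 9 of 48 tests the effect of a knockout differed between experiments in the same line (limma interaction). The adjusted p was 0.00978 for HES1 and 0.0110 for NRARP with sgKLF5 in AsPC-1 (4.28% of all genes passed), 4.11e-05 for HES1 with sgRUVBL1 in AsPC-1 (18.2%), and 0.0341 for JAG1 with sgKLF5 in T3M-4 (17.4%). In BxPC-3 it was 0.000377 for JAG1, 0.00226 for LFNG and 0.0172 for HES1 with sgKLF5 (16.7%), and 0.0141 for JAG2 and 0.0464 for NRARP with sgRpa3 (7.77%). HES1 in AsPC-1 is the widest case, lower under sgRUVBL1 where its controls averaged 147.7 TPM and higher where they averaged 35.4 TPM.

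The effect of CB-6644 differed among T84, A375, H1048 and RH30 (limma F-test), with an adjusted p of 2.86e-14 for NOTCH1, 0.0124 for NOTCH2, 4.60e-06 for NOTCH3, 4.16e-15 for JAG1, 5.11e-20 for JAG2, 6.89e-14 for LFNG, 6.84e-14 for HES1, 1.50e-06 for HEY1 and 5.71e-10 for NRARP. For JAG2 and NRARP the test includes A375, and for HEY1 T84, where the gene is below 1 TPM and the floor of 0 limits a change.

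In 15 pairs of lines every library of 1 line lay above its controls and every library of the other below them, and these differences were not tested. The same count was not taken over all genes, and the sgRpa3 groups among them held 2 libraries each. Under sgKLF5 the gap between the 2 log2 differences was 1.34 for JAG2 (AsPC-1 experiment 1, BxPC-3 experiment 2), 1.57 for LFNG (BxPC-3 experiment 2, SUIT-2), 0.79 for HES1 (T3M-4 experiment 1, SUIT-2) and 0.87 for NRARP (BxPC-3 experiment 2, AsPC-1 experiment 3). Under sgRUVBL1 it was 1.5 for JAG1 (AsPC-1 experiment 3, CFPAC-1), 1.13 for HES1 (T3M-4, AsPC-1 experiment 2) and 0.51 for NRARP (BxPC-3, AsPC-1 experiment 2), and under sgRUVBL2 1.21 for NOTCH2 and 1.53 for JAG1 (AsPC-1, CFPAC-1). Under sgRpa3 it was, against BxPC-3 experiment 1, 1.5 for NOTCH1, 0.77 for JAG2 and 0.82 for HEY1 (T3M-4 experiment 2) and 1.14 for NOTCH2 and 0.93 for LFNG (CFPAC-1). For CB-6644 in empty-vector cells it was 0.90 for HES1 (AsPC-1, T3M-4).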

How the results depend on the processing

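Of 134 member calls, 133 were kept with a pseudocount of 0.1, 125 with no filter, 114 with median-of-ratios scaling and 99 with the long-transcript level as a covariate, chosen after seeing the data. In fits of 2 groups alone 84 of 99 were kept, with a replicate block 121 of 125, and against the same-vector DMSO library 5 of 9. All 121 calls that could be tested at a mean of 5 TPM were kept. Signs turned with the covariate for NOTCH2 (−0.057) and NOTCH3 (−0.15) under sgRUVBL1 in T3M-4, NOTCH2 in AsPC-1 dF109 cells (−0.091), NOTCH2 (−0.14) and LFNG (−0.10) in T3M-4 A62T cells and NOTCH2 (−0.022) and LFNG (−0.0036) in T3M-4 dF109 cells with CB-6644, and with scaling for NOTCH1 in H1048 (−0.038). Member calls for CB-6644 in empty-vector cells numbered 3, or 7 with scaling and 6 with the covariate. Those in variant cells numbered 6, or 3 with no filter, 1 with the covariate and 3 in fits of 2 groups alone. Those in the other 4 lines numbered 29, or 19 with the covariate, and differences between experiments 9, or 14 with the covariate. The cause was not tested. TPM gives no depth, so counting error is not known.

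Leaving out each library in turn gave 18 to 24 calls for sgKLF5 (20 in full), 15 to 18 for sgRUVBL1 (16), 6 to 11 for sgRUVBL2 (8), 5 to 9 for sgCDK1 (6), 5 to 9 for sgRpa3 (6), 2 to 4 for sgCHD4 (3) and 0 for sgSERPINB5. It gave 3 to 5 for CB-6644 in empty-vector cells (5 without the AsPC-1 dF109 or EV DMSO library or T3M-4 EV CB-6644 replicate 3). It gave 2 to 9 in variant cells, with 3 without T3M-4 A62T replicate 1, 2 or 3 or dF109 replicate 1 or 2 in CB-6644 and 2 without the T3M-4 dF109 or EV DMSO library. It gave 6 to 15 for variants against empty vector (9 in full, 15 without T3M-4 EV CB-6644 replicate 1), 28 to 30 in the other lines, 13 to 15 for sgRUVBL1 against sgKLF5 (14), 0 for sgRUVBL2 against sgRUVBL1, 12 to 15 for sgRUVBL1 against sgCDK1 (14), 9 for line by CB-6644 and 6 to 11 for differences between experiments.

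With the replicate block the calls were 23 for sgKLF5, 15 for sgRUVBL1 and 9 for sgRUVBL2. The block ended the calls of NOTCH3 under sgRUVBL1 in T3M-4 (0.57, limma adjusted p = 0.0889), LFNG under sgKLF5 in BxPC-3 experiment 1 (−0.54, 0.0616), NOTCH1 for sgRUVBL1 against sgKLF5 in CFPAC-1 (−0.42, 0.0748) and NRARP in H1048 (−0.15, 0.0541). In 29 of the 30 comparisons with at least 3 shared numbers the libraries share only a number. In the paired one, sgRUVBL2 against sgRUVBL1 in BxPC-3, the blocked count was 0, as without the block.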
